A study of Mus musculus with 21 samples.

Results

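The TNF superfamily ligand genes Tnf, Lta, Ltb, Tnfsf8, Tnfsf10, Tnfsf11, Tnfsf14, Fasl and Cd40lg were taken by symbol (in the table TNF, LTA, LTB, TNFSF8, TNFSF10, TNFSF11, TNFSF14, FASL and CD40LG), 9 of the 23415 gene rows of an expression table of cultured mouse CD4 T cells. Naive CD4+CD44lowCD62LhighCD25- T cells had been sorted from spleen and lymph nodes of Il23r wt/eGFP reporter mice, in which an IRES-eGFP cassette sits in 1 Il23r allele. The labels describe that allele as a functional knockout of Il23r, so the cells of every group, controls included, carried a single working copy. The cells were activated on plate-bound anti-CD3 and anti-CD28 and cultured for 5 days. The cytokines were IL-12 (20 ng/ml), IL-12+IL-21 (20 and 20 ng/ml), IL-1b+IL-6+IL-23 (20, 25 and 20 ng/ml) or TGFb+IL-6 (2 and 25 ng/ml, with human TGF-b). The cells were then sorted into eGFP-positive (GFPpos) and eGFP-negative (GFPneg) cells, and IL-12 cultures were represented by GFPneg cells. This gave 7 groups with 3 libraries each. The age and number of the mice are not given in the sources used here, and neither is whether replicates came from separate mice or cultures, so p-values measure the spread between these libraries, which may be technical.

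TNF superfamily ligands are mostly membrane-bound or shed trimers that engage TNF receptors on neighbouring cells and signal to NF-kB, to MAP kinases or to cell death. Lymphotoxin-alpha, encoded by Lta, is secreted as a homotrimer that binds the TNF receptors, or is held on the cell surface by lymphotoxin-beta, encoded by Ltb, in a complex that binds the lymphotoxin-beta receptor. CD4 T cells use CD40 ligand to help B cells and dendritic cells, and use Fas ligand and TRAIL in killing and in limiting their own numbers.

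Libraries differed in quality before any group was compared. Of the 21 libraries, 16 passed the minimum of 7000 genes at TPM ≥ 1 and were used (TPM is a level per transcript length, scaled to the library's total), with 7522 to 9248 such genes each. The 5 libraries left out had 190 to 5608. This left 2 libraries of IL-12 GFPneg (replicates 2 and 3), 2 of IL-12+IL-21 GFPneg (1 and 2), 3 of IL-12+IL-21 GFPpos, 3 each of IL-1b+IL-6+IL-23 GFPneg and GFPpos, 2 of TGFb+IL-6 GFPneg (1 and 2) and 1 of TGFb+IL-6 GFPpos (1). Il23r itself stood at 3.57 to 38.9 TPM in the 7 GFPpos libraries and at 0 to 7.56 TPM in the 9 GFPneg libraries. The summed TPM of 5 CD4 T cell markers lay between 644 and 1224 in every library used, and the B cell list between 0 and 0.94. Read depth cannot be recovered from TPM. Fewer cells of a type and less RNA per cell cannot be told apart in these bulk samples.

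All 9 ligand genes reached TPM ≥ 1 in 3 or more of the 16 libraries, the filter that left 9592 genes. Fasl passed it only through the IL-12 and IL-12+IL-21 libraries, where it is highest, with 6 libraries at TPM ≥ 1 and 5 listed at 0. Its values are therefore given without a test, and counts of called genes are over the other 8. Averaged over the 16 libraries, Lta stood at 530 TPM, above 97.4% of tested genes. Cd40lg followed at 59.2, Ltb at 56.6, Tnfsf8 at 46.7 and Tnf at 38.7 TPM. Tnfsf10 averaged 19.1 TPM, Tnfsf14 6.003, Tnfsf11 4.92 and Fasl 1.09.

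Tnf, Lta and Ltb lie next to each other on mouse chromosome 17 (GRCm38, GENCODE M21, all 3 protein-coding). Ltb spans 35194439 to 35196320 on the plus strand, Tnf 35199381 to 35202007 and Lta 35203165 to 35205351, both on the minus strand. The gaps are 3060 bases between Ltb and Tnf and 1157 bases between Tnf and Lta. Tnfsf14 lies on the same chromosome at 57189492 to 57194177, and the other members are on chromosomes 4 (Tnfsf8), 3 (Tnfsf10), 14 (Tnfsf11), 1 (Fasl) and X (Cd40lg). RefSeq promoter windows (GRCm38.p6) were matched for 8 of the 9 members. The windows of Tnf, Lta and Ltb are shown because these 3 neighbours had 3 different orders of level across the cultures, and each is printed 5′ to 3′ on the gene's own strand and ends before the GENCODE transcript. They are chr17:35202008-35202257 (minus strand), chr17:35205352-35205601 (minus strand) and chr17:35194257-35194438 (plus strand). Capitals mark matches, on either strand, to 5 searched motifs.
Tnf: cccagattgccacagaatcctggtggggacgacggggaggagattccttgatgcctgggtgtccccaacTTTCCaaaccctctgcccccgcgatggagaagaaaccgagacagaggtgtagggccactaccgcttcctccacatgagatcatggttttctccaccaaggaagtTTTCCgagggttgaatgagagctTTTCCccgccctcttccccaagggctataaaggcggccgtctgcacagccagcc
Lta: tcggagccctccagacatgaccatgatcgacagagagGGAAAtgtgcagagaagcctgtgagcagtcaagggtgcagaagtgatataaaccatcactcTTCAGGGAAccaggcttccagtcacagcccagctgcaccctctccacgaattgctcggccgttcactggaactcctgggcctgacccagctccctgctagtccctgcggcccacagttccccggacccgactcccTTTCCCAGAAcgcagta
Ltb: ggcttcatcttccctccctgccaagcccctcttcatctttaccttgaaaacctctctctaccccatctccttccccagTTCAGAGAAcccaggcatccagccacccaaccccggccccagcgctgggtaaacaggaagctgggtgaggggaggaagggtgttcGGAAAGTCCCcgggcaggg
The Tnf window held 3 copies of the NFAT core GGAAA, all on the opposite strand and so printed TTTCC. The Lta window held 2 NFAT cores and 2 matches to the STAT letters TTCNNNGAA, at 152 and 16 bases before the RefSeq start, the nearer of which overlaps an NFAT core. The Ltb window held 1 STAT match at 172 bases and, at 87 bases, the only match to the NF-kB consensus among the 8 windows, which overlaps an NFAT core. The AP-1 letters TGANTCA were found in the Tnfsf14 window only, and the T-box letters GGTGTGA in none of the 8. Of all 32807 mouse promoter windows, 55.6% held the NFAT core, 7.02% the STAT, 6.75% the AP-1 and 3.33% the T-box letters, and 3.9% the NF-kB consensus. A match says only that these letters are present.

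Lta was the most abundant of the 9 genes in the IL-12, IL-12+IL-21 and also the TGFb+IL-6 cells and dropped by about an order of magnitude in IL-1b+IL-6+IL-23 cells. Its level was 489 and 835 TPM in the 2 IL-12 GFPneg libraries. It was 556 and 512 TPM in IL-12+IL-21 GFPneg and 738, 697 and 790 TPM in the IL-12+IL-21 GFPpos cells. In the IL-1b+IL-6+IL-23 libraries it was 66.9, 58.3 and 88.8 TPM in GFPneg and 48.8, 39.7 and 68.9 TPM in GFPpos cells. The TGFb+IL-6 libraries, at 1153 and 1159 TPM (GFPneg) and 1184 TPM (GFPpos), were above every other library, and the 6 IL-1b+IL-6+IL-23 libraries were below every other one. Lta fell in IL-1b+IL-6+IL-23 GFPneg against IL-12 GFPneg cells, from 662 ± 245 (SD, n = 2) to 71.4 ± 15.7 TPM (n = 3), a change of -3.17 ± 0.24 (SE) in log2(TPM + 1) (limma, adjusted p = 3.78e-07). Against IL-12+IL-21 it was lower in both sorts, with changes of -2.91 ± 0.24 in GFPneg (adjusted p = 2.43e-06) and -3.83 ± 0.22 in GFPpos cells (adjusted p = 1.08e-08).

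Lta rose in TGFb+IL-6 GFPneg cells (1156 ± 4.53 TPM, SD, n = 2) against IL-1b+IL-6+IL-23 GFPneg cells by 4.02 ± 0.24 (adjusted p = 2.45e-08), and in GFPpos cells by 4.51 ± 0.30 (adjusted p = 1.62e-07, 1 library against 3). The rise over IL-12 GFPneg (0.86 ± 0.26, adjusted p = 0.0311) and over IL-12+IL-21 GFPneg cells (1.11 ± 0.26, adjusted p = 0.0158) was smaller. Those 2 calls were lost when single libraries were left out: the first without IL-12 GFPneg replicate 2 or either TGFb+IL-6 GFPneg library (changes of 0.47 to 1.24, adjusted p 0.0129 to 0.31 over 4 fits), the second without any one of its 4 libraries (1.05 to 1.17, adjusted p 0.074 to 0.104). In GFPpos cells TGFb+IL-6 exceeded IL-12+IL-21 by 0.68, which did not pass the test.

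Ltb, the membrane anchor of the lymphotoxin complex, was on average highest in TGFb+IL-6 GFPneg and lowest in IL-1b+IL-6+IL-23 cells. Its order differed from that of Lta in the IL-12 cultures. It also differed in the TGFb+IL-6 GFPpos library, where Ltb lay between its levels in the 2 IL-12+IL-21 GFPneg libraries. It stood at 21.2 and 53.0 TPM in IL-12 GFPneg, 69.2 and 108 TPM in IL-12+IL-21 GFPneg, and 47.6, 47.1 and 63.4 TPM in the IL-12+IL-21 GFPpos cells. It stood at 18.8, 26.0 and 21.3 TPM in IL-1b+IL-6+IL-23 GFPneg, and at 17.9, 19.1 and 19.8 TPM in GFPpos cells. TGFb+IL-6 gave 176 and 123 TPM in GFPneg and 73.0 TPM in GFPpos cells. The TGFb+IL-6 GFPneg libraries were above all others, while the lower IL-12 GFPneg library fell inside the IL-1b+IL-6+IL-23 range. Ltb rose in TGFb+IL-6 GFPneg cells against IL-1b+IL-6+IL-23 (2.70 ± 0.31, adjusted p = 2.2e-05) and against IL-12 GFPneg cells (2.10 ± 0.34, adjusted p = 0.000528), and in the single GFPpos library against IL-1b+IL-6+IL-23 (1.90 ± 0.40, adjusted p = 0.00854). It fell in IL-1b+IL-6+IL-23 against IL-12+IL-21 cells, by 1.94 in GFPneg (adjusted p = 0.00161) and by 1.42 in GFPpos cells (adjusted p = 0.00517). The difference of 1.34 between IL-12+IL-21 and IL-12 GFPneg cells (88.8 ± 27.7 against 37.1 ± 22.5 TPM) did not pass (adjusted p = 0.0884), and neither did that of 0.76 between TGFb+IL-6 and IL-12+IL-21 GFPneg cells (adjusted p = 0.213).

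Tnf, which encodes the soluble and membrane-bound inflammatory cytokine TNF, had a narrower range than its neighbour Lta. It stood at 50.0 and 76.4 TPM in IL-12 GFPneg, 46.8 and 30.2 TPM in IL-12+IL-21 GFPneg, and 69.7, 45.4 and 85.5 TPM in the IL-12+IL-21 GFPpos cells. It stood at 20.0, 19.4 and 19.7 TPM in IL-1b+IL-6+IL-23 GFPneg, and at 20.5, 18.04 and 28.4 TPM in GFPpos cells. TGFb+IL-6 gave 26.3 and 23.5 TPM in GFPneg and 39.8 TPM in GFPpos cells. Every library with IL-12 was above every IL-1b+IL-6+IL-23 library. Tnf fell in IL-1b+IL-6+IL-23 against IL-12 GFPneg cells (-1.60 ± 0.28, adjusted p = 0.00191), in IL-1b+IL-6+IL-23 against IL-12+IL-21 GFPpos cells (-1.52 ± 0.25, adjusted p = 0.00129), and in TGFb+IL-6 against IL-12 GFPneg cells (-1.28 ± 0.31, adjusted p = 0.00895). Without IL-12 GFPneg replicate 3 the changes against IL-12 GFPneg were -1.30 for IL-1b+IL-6+IL-23 (adjusted p = 0.0576) and -0.98 for TGFb+IL-6 (adjusted p = 0.0965), and without TGFb+IL-6 GFPneg replicate 2 the latter was -1.202 (adjusted p = 0.0697). In TGFb+IL-6 GFPneg cells Tnf was thus lower and Lta higher than in IL-12 GFPneg cells, though both calls were lost when some single libraries were left out.

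The ratio of Lta to Tnf followed the culture. There were 2.202 to 4.51 Lta transcripts per Tnf transcript in the IL-1b+IL-6+IL-23 libraries, 9.24 to 16.9 in the libraries with IL-12, and 29.7 to 49.3 with TGFb+IL-6, with no overlap between these ranges. The Lta to Ltb ratio did not separate the cultures in this way: it was 15.8 to 23.1 in IL-12 GFPneg, 4.72 to 8.04 in IL-12+IL-21 GFPneg and 6.54 to 9.40 in TGFb+IL-6 GFPneg cells. Lta made up 28.0 to 35.8% of the summed TPM of the 9 genes in the IL-1b+IL-6+IL-23 libraries and 82.7 to 87.1% with TGFb+IL-6. That sum was 142 to 248 TPM in the IL-1b+IL-6+IL-23 libraries and 782 to 1394 TPM in the other libraries.

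**Figure D1:**
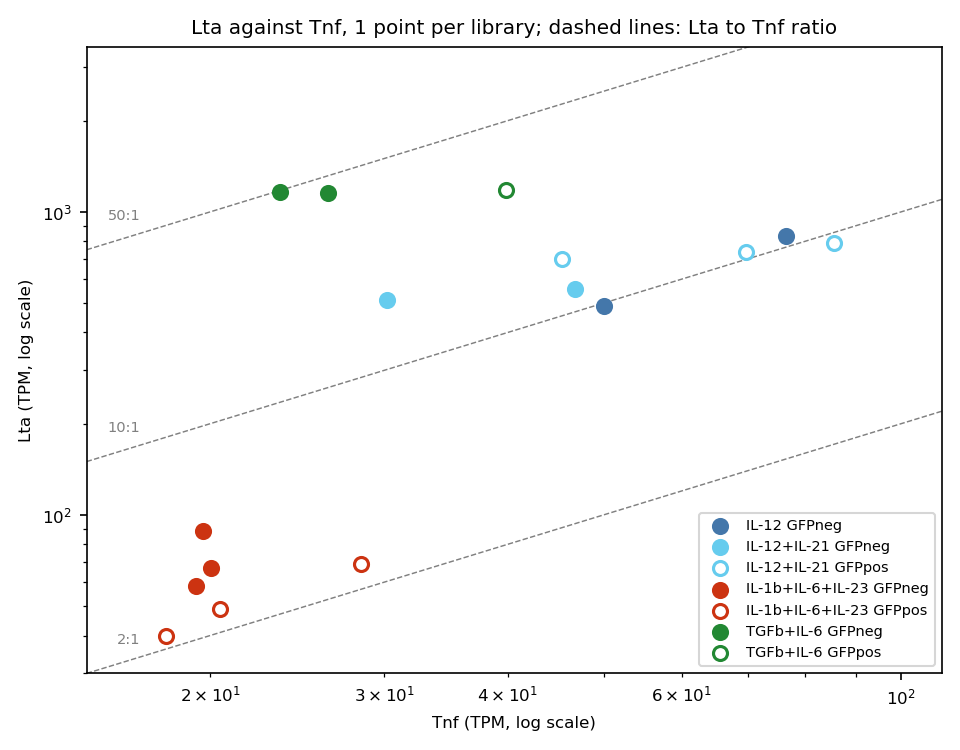
Lta (vertical axis) against Tnf (horizontal axis), both in TPM on log scales, with 1 point per library, filled for GFPneg and open for GFPpos, and dashed lines at fixed Lta to Tnf ratios. The TGFb+IL-6 libraries lie at 29.7 to 49.3 and the IL-1b+IL-6+IL-23 libraries at 2.202 to 4.51 Lta per Tnf, at overlapping Tnf levels.

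Every deposited value of Tnf, Lta and Ltb was a whole multiple of 0.04 TPM, although the table is written to 2 decimals and the other 6 members had steps of 0.01. Of 10935 genes above 0 in at least 10 libraries, 22 had steps of 0.04, and all 22 lie on chromosome 17 between 34589806 and 37196095. Each library still summed to 1000000 or 1000001 TPM. What was added or multiplied to give these steps is not given in the sources used here. A constant factor would leave differences between cultures and the Lta to Ltb and Lta to Tnf ratios as they are, but would change the level of these 3 genes against the other 6, and the shares of the summed TPM.

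Cd40lg, the gene of the ligand through which helper T cells activate CD40 on B cells and dendritic cells, split the libraries into 2 sets. The libraries with IL-12 were high, at 109 and 121 TPM in IL-12 GFPneg, 97.3 and 79.8 TPM in IL-12+IL-21 GFPneg, and 146, 90.5 and 188 TPM in the IL-12+IL-21 GFPpos cells. The 9 other libraries were low, between 9.14 and 18.1 TPM. No library of one set came near the other. Cd40lg fell against IL-12 GFPneg cells in IL-1b+IL-6+IL-23 (114.8 ± 8.30 to 11.5 ± 3.32 TPM, -3.24 ± 0.29, adjusted p = 2.14e-06) and in TGFb+IL-6 GFPneg cells (to 12.8 ± 1.51 TPM, -3.07 ± 0.31, adjusted p = 6.1e-06). Against IL-12+IL-21 it changed by -2.87 and -2.69 in the GFPneg cells of these cultures (adjusted p = 1.6e-05 and 3.28e-05) and by -3.35 and -2.83 in their GFPpos cells (adjusted p = 4.06e-07 and 0.000127). All 6 calls were made in every fit with 1 library left out.

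Tnfsf8 encodes CD30 ligand, which signals to activated lymphocytes through CD30. It was low in TGFb+IL-6 cells and high in all other cultures, IL-1b+IL-6+IL-23 included. It stood at 61.6 and 64.3 TPM in IL-12 GFPneg, 58.3 and 35.5 TPM in IL-12+IL-21 GFPneg, and 68.6, 41.7 and 91.8 TPM in the IL-12+IL-21 GFPpos cells. It stood at 67.4, 48.2 and 68.9 TPM in IL-1b+IL-6+IL-23 GFPneg, and at 44.5, 30.7 and 47.8 TPM in GFPpos cells. TGFb+IL-6 gave 2.78 and 2.47 TPM in GFPneg and 12.3 TPM in GFPpos cells, so that none of its libraries overlapped another culture. The TGFb+IL-6 GFPneg cells differed by -4.14 ± 0.34 from IL-12 (adjusted p = 4.85e-07), by -3.68 ± 0.34 from IL-12+IL-21 (adjusted p = 2.43e-06) and by -4.09 ± 0.31 from IL-1b+IL-6+IL-23 GFPneg cells (adjusted p = 2.42e-07). The GFPpos library differed by -2.29 ± 0.39 from IL-12+IL-21 (adjusted p = 0.00157) and by -1.63 ± 0.39 from the IL-1b+IL-6+IL-23 GFPpos libraries (adjusted p = 0.0198). The last call was lost without IL-1b+IL-6+IL-23 GFPpos replicate 1 or 3 (adjusted p up to 0.0558).

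Fasl, the gene of the death ligand that triggers Fas, was low throughout and was detected mainly with IL-12. It stood at 2.15 and 4.61 TPM in IL-12 GFPneg, 0.74 and 1.17 TPM in IL-12+IL-21 GFPneg, and 2.04, 3.13 and 1.99 TPM in the IL-12+IL-21 GFPpos cells. In the IL-1b+IL-6+IL-23 libraries it was listed at 0 in 4 of 6 libraries and at 0.12 and 0.18 TPM in the others, and the TGFb+IL-6 libraries had 0, 0.74 and 0.58 TPM. The lowest library with IL-12 and the highest with TGFb+IL-6 stood at the same 0.74 TPM. No ratio is given because libraries of the lower groups are listed at 0.

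Tnfsf10, the gene of the death ligand TRAIL, was highest in IL-12 GFPneg cells, at 35.2 and 39.7 TPM, above every other library. The other 14 libraries spanned 9.26 to 27.1 TPM. It fell in TGFb+IL-6 GFPneg cells (15.9 and 16.1 TPM) against IL-12 GFPneg cells (-1.18 ± 0.28, adjusted p = 0.00836). That call was lost with median-ratio scaling (-0.76, adjusted p = 0.105), and without IL-12 GFPneg replicate 3 (-1.09, adjusted p = 0.0603) or TGFb+IL-6 GFPneg replicate 2 (-1.18, adjusted p = 0.053). The difference of -0.85 between IL-1b+IL-6+IL-23 and IL-12 GFPneg cells did not pass (adjusted p = 0.0597), but did in 4 of 14 alternatives, the replicate block among them (-0.94, adjusted p = 0.0253). That of -1.01 between IL-12+IL-21 and IL-12 GFPneg cells did not pass either (adjusted p = 0.111).

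Tnfsf11, which encodes RANK ligand, and Tnfsf14, which encodes LIGHT, a ligand of HVEM and of the lymphotoxin-beta receptor, were the other low members. Tnfsf11 ranged from 1.52 to 9.75 TPM and was highest on average in IL-1b+IL-6+IL-23 GFPneg (6.28, 5.41 and 9.75 TPM) and GFPpos cells (7.59, 6.45 and 5.87 TPM). It was 2.95 and 1.85 TPM in TGFb+IL-6 GFPneg cells, a change of -1.24 ± 0.38 against IL-1b+IL-6+IL-23 GFPneg cells (adjusted p = 0.0351). This call was lost in 4 of 5 fits with 1 library left out (changes of -1.01 to -1.48, adjusted p up to 0.269), with no filter (adjusted p = 0.076) and with a replicate block (-1.10, adjusted p = 0.0564). Its difference of 1.03 between IL-1b+IL-6+IL-23 and IL-12+IL-21 GFPpos cells did not pass (adjusted p = 0.104). That difference was positive in all 15 alternatives and passed in 2, median-ratio scaling (1.201, adjusted p = 0.0204) and leaving out IL-12+IL-21 GFPpos replicate 3 (1.48, adjusted p = 0.00589). Tnfsf14 ranged from 1.27 to 13.3 TPM, with overlapping ranges between each pair of groups next to each other in order of the mean, and was called in no comparison.

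**Figure D2:**
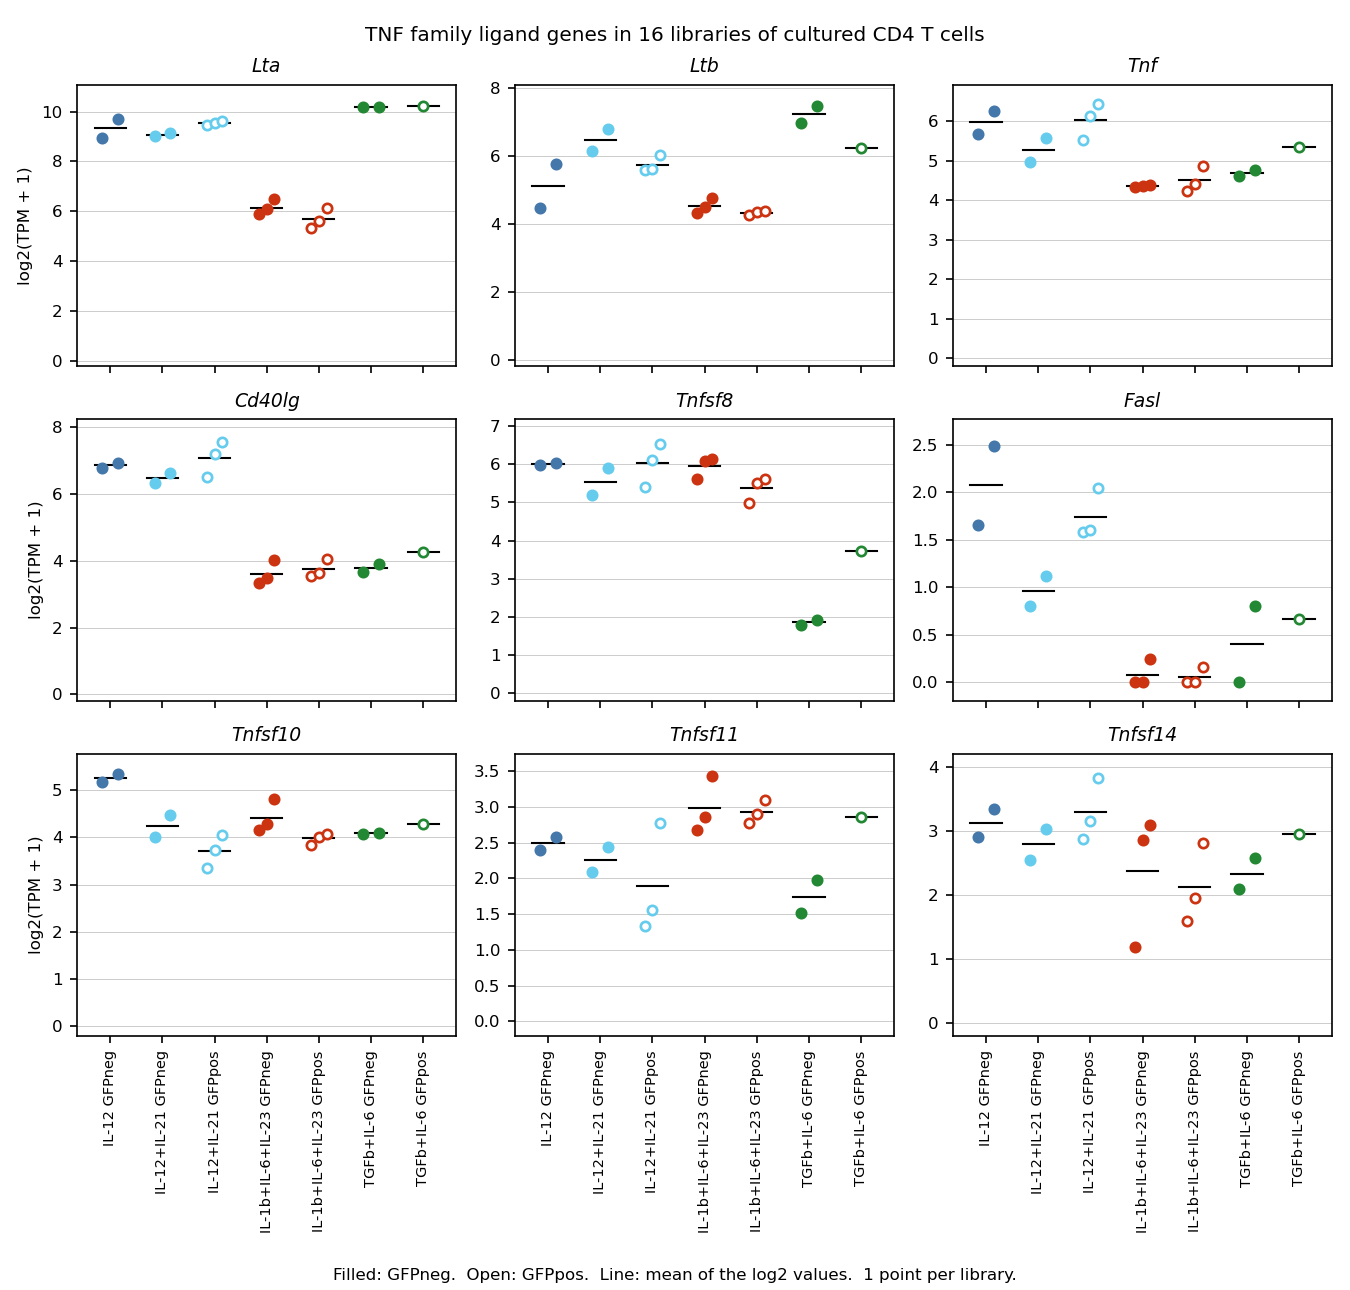
Level of each ligand gene as log2(TPM + 1) (vertical axes, with a scale of its own in each panel) in the 7 groups, with 1 point per library, filled for GFPneg and open for GFPpos, and a line at the mean of the log2 values. Lta is lowest in IL-1b+IL-6+IL-23, Tnfsf8 is lowest in TGFb+IL-6 at 2.47 to 12.3 TPM, and Cd40lg is low in both at 9.14 to 18.1 TPM.

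Counted over the 8 genes tested, the cultures differed in how many ligand genes passed and in which direction. In TGFb+IL-6 against IL-12 GFPneg cells 6 of 8 passed, beside 20.9% of all tested genes. Lta and Ltb were higher (5.09% of all genes), and Tnf, Tnfsf8, Tnfsf10 and Cd40lg were lower (15.8%). With 1 library left out the count was 3 to 5, the lowest without TGFb+IL-6 GFPneg replicate 2, and Ltb, Tnfsf8 and Cd40lg were called in each of the 4 fits. The median of the 8 genes was -0.99 and the all-gene median -0.33. In IL-1b+IL-6+IL-23 against IL-12 GFPneg cells 3 of 8 were lower (Tnf, Lta and Cd40lg; 4.30% of all genes lower, 7.01% called in all), with medians of -0.80 and -0.09. For IL-1b+IL-6+IL-23 against IL-12+IL-21 cells 3 of 8 were lower in GFPneg (Lta, Ltb and Cd40lg; 2.16% of all genes lower, 3.41% in all) and 4 of 8 in GFPpos cells (these 3 with Tnf; 3.59% lower, 4.96% in all). None was called higher in these 3 comparisons.

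In TGFb+IL-6 against IL-12+IL-21 GFPneg cells 3 of 8 passed, beside 6.82% of all genes (Lta higher, with 2.01% of all genes higher, and Tnfsf8 and Cd40lg lower, with 4.81%), and in GFPpos cells 2 of 8, beside 4.91% (Tnfsf8 and Cd40lg lower, with 3.13%). In TGFb+IL-6 against IL-1b+IL-6+IL-23 GFPneg cells 4 of 8 passed, beside 15.4% (Lta and Ltb higher, with 4.83%, and Tnfsf8 and Tnfsf11 lower, with 10.6%), and in GFPpos cells 3 of 8, beside 5.39% (Lta and Ltb higher, with 3.02%, and Tnfsf8 lower, with 2.37%). The comparisons share groups, so their counts are not independent. Among all calls of TGFb+IL-6 against IL-12 GFPneg cells, 24.4% were higher, and 55.2% with median-ratio scaling, which moved the all-gene median to 0. The same shares were 38.7% and 54.2% for IL-1b+IL-6+IL-23 against IL-12 GFPneg cells, 27.7% and 47.2% for IL-1b+IL-6+IL-23 against IL-12+IL-21 GFPpos cells, 29.5% and 52.6% for TGFb+IL-6 against IL-12+IL-21 GFPneg cells, and 31.3% and 53.4% for TGFb+IL-6 against IL-1b+IL-6+IL-23 GFPneg cells. Of the 28 member calls, 27 were made under that scaling with the same direction.

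**Figure D3:**
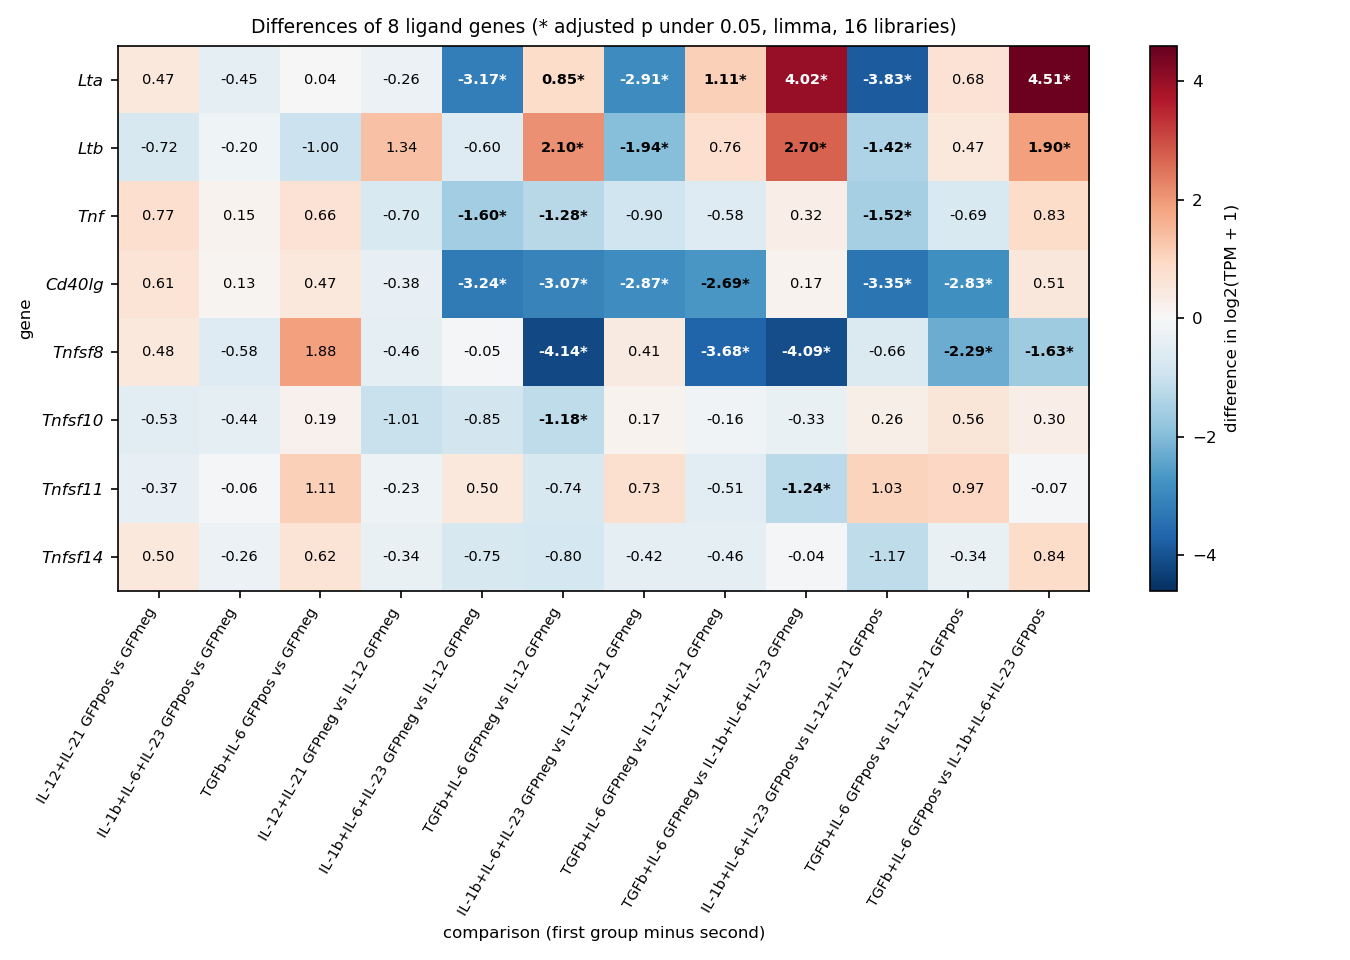
Difference in log2(TPM + 1) of the 8 ligand genes tested (rows) in 12 comparisons (columns, first group minus second), coloured from blue (lower) to red (higher), with an asterisk where the limma adjusted p was under 0.05. The 3 leftmost columns, GFPpos against GFPneg, and the fourth, IL-12+IL-21 against IL-12, hold no call, and the other 8 columns hold the 28 calls.

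The 28 calls rest on the choice of libraries. With all 21 libraries 0 of the 28 passed, 27 in the same direction and 1 in the opposite one (Ltb in TGFb+IL-6 against IL-1b+IL-6+IL-23 cells sorted GFPpos, -0.84, adjusted p = 0.747). With 18 libraries, those with 4000 or more genes at TPM ≥ 1, 7 passed and the other 21 kept their direction. One of the 2 libraries added there, IL-12 GFPneg replicate 1, stood apart from its group, with Lta at 93.7, Tnf at 4.00, Cd40lg at 3.01 and Tnfsf8 at 262 TPM. The other, TGFb+IL-6 GFPpos replicate 2, had Lta at 295, Ltb at 17.5 and Tnfsf8 at 13.1 TPM. The share of all genes called with 21 and with 18 libraries was not counted. Of 27 calls on named genes outside the members, 1 passed with all 21 libraries and 4 with the 18.

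Adding IL-21 to IL-12 called none of the 8 genes in GFPneg cells, beside 0.761% of all genes. Of the 9592 tested genes, 1311 had an unadjusted p under 0.05 (limma), 3 of the 8 ligand genes among them. Ltb was the higher one and Tnf (-0.70, adjusted p = 0.327) and Tnfsf10 were the lower ones. The 2 libraries of one culture did not overlap the 2 of the other for these 3 genes, and neither did they for Tnfsf8 and Cd40lg. The share of all genes without overlap was not counted, so nothing is read from this.

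Il23r reporter expression within a culture was compared next, without pairing the libraries of the GFPpos and GFPneg sorts. Whether sorts with the same replicate number came from 1 culture is not given, so these tests may leave out a pairing. In IL-12+IL-21 cells 0 of 8 ligand genes passed between GFPpos and GFPneg cells, beside 0.156% of all genes. An unadjusted p under 0.05 (limma) was found for 1392 of the 9592 tested genes and for 3 of the 8. The intervals of single genes, not adjusted over genes, did not hold 0 for these 3. Tnf differed by 0.77 (95% interval 0.17 to 1.37, adjusted p 0.107 to 1 over 14 alternatives). Cd40lg differed by 0.61 (0.01 to 1.22), while Ltb differed by -0.72 (-1.38 to -0.06). For Lta the difference was 0.47 (-0.04 to 0.98). All 3 GFPpos libraries were above both GFPneg ones for Lta and below both for Ltb. How many of all genes were separated in this way was not counted, so nothing is read from this.

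In IL-1b+IL-6+IL-23 cells 0 of 8 passed, beside 0.427% of all genes. None of the 8 had an unadjusted p under 0.05 (limma), beside 809 of the 9592 tested genes. The largest differences were lower levels in GFPpos cells of Tnfsf8 (41.0 ± 9.07 against 61.5 ± 11.5 TPM, n = 3 each, -0.58, 95% interval -1.16 to 0.00), Lta (-0.45, -0.91 to 0.01) and Tnfsf10 (-0.44, -0.92 to 0.05). For Tnfsf8 and Tnfsf10 every GFPpos library was below every GFPneg one. The share of all genes separated in this way was not counted, so nothing is read from this.

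In TGFb+IL-6 cells the limma comparison set 1 GFPpos library against 2 GFPneg libraries, so no count of called genes is read from it. Tnfsf8 was 12.3 TPM in the GFPpos library and 2.78 and 2.47 TPM in the GFPneg libraries, a difference of 1.88 ± 0.41 (adjusted p = 0.0698). It passed in some alternatives, with adjusted p between 0.0268 and 1 over the 11 run. Ltb differed by -1.005 (95% interval -1.90 to -0.11) and Tnfsf11 by 1.11 (0.04 to 2.19). The single GFPpos library was taken to vary like the other groups, and the all-gene median of this comparison was 0.37, so most genes read higher in that library. Under median-ratio scaling that median was 0.

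No ligand gene passed in the tests of whether the GFP difference itself varied with the culture. The share of all genes called was 0, 0.0104 and 0.0834% for the 3 pairs of cultures, and 2, 2 and 1 of the 8 genes had an unadjusted p under 0.05 (limma). Tnfsf8 was nearest to the threshold, with a GFP difference larger in TGFb+IL-6 than in IL-1b+IL-6+IL-23 cells by 2.46 ± 0.49 (adjusted p = 0.0884, and 0.0287 to 1 over 17 alternatives).

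The genes whose pattern over the 16 libraries was most like that of each member were found by Pearson's r of log2(TPM + 1), as a description: the libraries fall into 4 cultures, which set most of the pattern. Lta was most like Ifngr1 (r = 0.98), Treml2 (0.97) and Irf4 (0.96), and Tnf most like Tmem173 (0.94), Il10ra (0.93) and Tra2a (0.93). Ltb was most like Cdca3 (0.93), Smc4 (0.92) and Nusap1 (0.92), Cd40lg like Etv5 (0.99), Gimap4 (0.98) and Il10ra (0.97), and Tnfsf8 like Btla (0.97), Serpine2 (0.97) and Glipr1 (0.96). Fasl was most like Il10ra (0.92), Suclg1 (0.92) and Tspan13 (0.91), and Tnfsf10 like Cflar (0.98), Lepr (0.98) and Teddm1b (0.98). The low genes Tnfsf11 (Golgb1, 0.83) and Tnfsf14 (Zwint, 0.88) had weaker nearest patterns. Among the members, Tnf and Cd40lg had r = 0.91 and Lta and Ltb 0.84, while Tnf and Ltb, neighbours 3060 bases apart, had 0.32.

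Of 9 other TNF family ligand genes, 3 passed the filter on low values, and all 3 fell in TGFb+IL-6 against IL-12 GFPneg cells, beside 15.8% of all genes lower. Cd70 fell from 58.2 to 0.865 TPM (-5.16 ± 0.54, adjusted p = 7.78e-06) and Tnfsf4, the gene of OX40 ligand, from 40.2 to 1.63 TPM (-4.10 ± 0.46, adjusted p = 1.45e-05). Tnfsf9, the gene of 4-1BB ligand, was the third. Cd70 and Tnfsf4 were also lower in TGFb+IL-6 than in IL-12+IL-21 GFPneg and IL-1b+IL-6+IL-23 GFPneg cells.

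Of 13 receptor genes of the member ligands 10 were tested, and in TGFb+IL-6 against IL-12 GFPneg cells 1 was higher (Tnfrsf1a) and 3 were lower, beside 5.09% of all genes higher and 15.8% lower. Fas, the receptor of Fas ligand, was 18.1 TPM there against 115 TPM (-2.60 ± 0.28, adjusted p = 8.72e-06), and Tnfrsf8, the gene of CD30, 0.545 against 6.34 TPM (-2.31 ± 0.44, adjusted p = 0.0018). Tnfrsf8 and its ligand gene Tnfsf8 were thus both lower with TGFb+IL-6. In IL-1b+IL-6+IL-23 against IL-12+IL-21 GFPpos cells 1 of 10 was higher and none lower, beside 4.96% of all genes called: Tnfrsf8 at 31 against 7.90 TPM (1.97 ± 0.36, adjusted p = 0.00263; with a pseudocount of 0.1, 2.12, adjusted p = 0.0936). Tnfrsf11b, the gene of the decoy receptor of RANK ligand, passed the filter only through IL-1b+IL-6+IL-23 libraries and was not tested, with means of 1.97 TPM in the GFPpos cells of that culture and at most 0.68 TPM in the groups of other cultures.

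**Figure D4:**
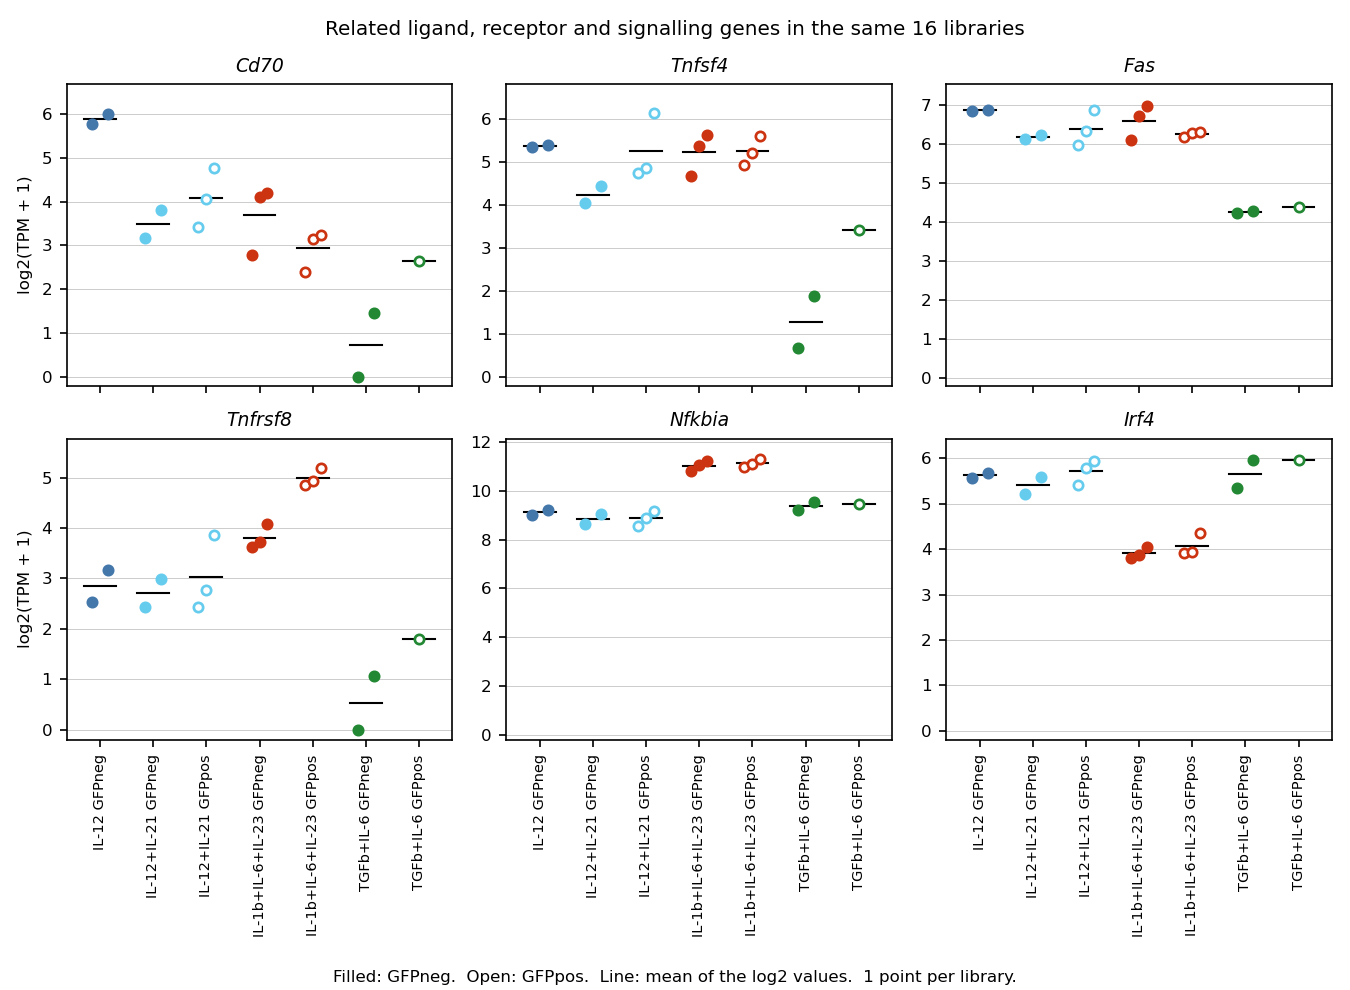
Level as log2(TPM + 1) (vertical axes, with a scale of its own in each panel) of 6 related genes in the 7 groups, with 1 point per library, filled for GFPneg and open for GFPpos, and a line at the mean of the log2 values. Cd70, Tnfsf4, Fas and Tnfrsf8 are lowest in TGFb+IL-6 GFPneg cells, Nfkbia is highest and Irf4 lowest in IL-1b+IL-6+IL-23.

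The remaining lists were read in 2 comparisons, TGFb+IL-6 against IL-12 GFPneg (20.9% of all genes called, 5.09% higher and 15.8% lower) and IL-1b+IL-6+IL-23 against IL-12 GFPneg cells (7.01% called, 4.30% lower). The lists' counts stand beside these shares, and nothing is read from them about a list. Of 15 other TNF receptor family genes 9 were tested. With TGFb+IL-6, 1 was higher and 4 lower, and with IL-1b+IL-6+IL-23, 1 was higher and 3 lower, Tnfrsf18 (1150 to 422 TPM, adjusted p = 2.05e-05) and Tnfrsf4 among them. Of 14 adaptor and death signalling genes 3 were lower with TGFb+IL-6, led by Traf1 (98.5 to 39.0 TPM, adjusted p = 0.000599) and Birc2, and none passed with IL-1b+IL-6+IL-23. Of 14 NF-kB genes, 2 were higher with IL-1b+IL-6+IL-23: Nfkbia, which encodes the NF-kB inhibitor that NF-kB itself induces, rose from 557 to 2103 TPM (1.91 ± 0.19, adjusted p = 9.52e-06), and Tnip1 was the other. With TGFb+IL-6, 1 NF-kB gene was higher (Relb) and 1 lower (Nfkbib). Of 16 T cell receptor response genes, 2 were higher and 2 lower with IL-1b+IL-6+IL-23: Nr4a1 rose from 18.6 to 100.4 TPM (adjusted p = 5.72e-05) while Irf4 fell from 48.3 to 14.1 TPM (adjusted p = 0.000254). With TGFb+IL-6, 5 were lower, led by Myc (222 to 82.0 TPM, adjusted p = 0.000192) and Nr4a2. Of 9 genes of AU-rich mRNA decay and stability, which act on transcripts such as that of Tnf, 8 were tested, and 1 was higher (Zfp36l2) and 1 lower (Zfp36l1) with TGFb+IL-6. None of the 5 tested ligand shedding genes passed in these 2 comparisons. The other settings were run for 27 calls on named genes outside the 9 members, and not for that on Cd4 given below. Of these 27, 18 were made in every fit with 1 library left out. Of the other 9, those on Relb and Zfp36l2 were lost in all 4 fits, Tnip1 in 4 of 5, Zfp36l1 in 3 of 4, Tnfsf9, Tnfrsf1a and Cd70 against IL-12+IL-21 in 2 of 4, Birc2 in 1 of 4 and Cd28 in IL-1b+IL-6+IL-23 in 1 of 5. The Relb call was also lost with a pseudocount of 0.1 and without a filter, that on Zfp36l2 with a pseudocount of 5 and the replicate block, and that on Zfp36l1 with those and without a filter, with median-ratio scaling and with only the groups compared. With all 21 libraries 1 of the 27 passed, and with the 18 libraries 4.

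Markers of other cells were low throughout. In every library used the summed TPM was at most 0.94 for B cell, 0.63 for natural killer, 0.81 for gamma-delta T cell, 1.05 for erythroid and neutrophil, and 2.52 for myeloid and dendritic cell markers. Lyz2, Itgax, Adgre1, Pax5, Ncr1, Klrb1c and Sox13 were listed at 0 in every library used. The CD8 T cell list summed to 4.99 to 17.5 TPM, with Cd8a listed at 0 in 4 of the 7 groups. Of the 5 CD4 T cell markers, 1 was lower in IL-1b+IL-6+IL-23 than in IL-12 GFPneg cells, beside 4.30% of all genes lower. With TGFb+IL-6, 2 were lower, beside 15.8%, and in both comparisons 0 were higher. Cd28 was lower in both, at 32.5 and 25.6 TPM against 95.7 TPM (limma, adjusted p = 0.00495 and 0.00108). It moved in the same direction as Cd40lg. Cd4 itself fell with TGFb+IL-6, from 115.6 to 62.0 TPM (limma, adjusted p = 0.0175). The part of Cd28 and Cd4 in the result was not tested.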

How the data were processed

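Full-length RNA-seq libraries were made by a modified SMART-Seq2 protocol, per the labels' protocols. The submitters' processing notes name Trimmomatic 0.32, Bowtie2 2.2.9, RSEM 1.2.31 and GRCm38, with no further settings. The authors deposited 1 table of TPM per gene and library. TPM keeps no read depth, and a gene's share can move when other genes do. SMART-Seq2 keeps no strand, and the miRNA genes Mir6974 and Mir6973a lie within Lta and Ltb.

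Libraries with at least 7000 genes at TPM of at least 1 were kept (16 of 21). Genes at TPM of at least 1 in at least 3 kept libraries were tested (9592) with limma 3.58.1 (R 4.3.3) on log2(TPM + 1), with a pseudocount of 1 that understates changes of low genes. The fit used group means of all 7 groups, no covariates and an empirical Bayes trend. Calls had a Benjamini-Hochberg adjusted p under 0.05 over all tested genes, in 12 comparisons and 3 differences of the GFP effect. The fit was tested on simulated data. Other settings tried were a pseudocount of 0.1 or 5, a filter at TPM of at least 5 or none, median-ratio scaling, all 21 libraries, 18 libraries (chosen after seeing the data), only the groups compared, a replicate block and each library left out. Fasl and Tnfrsf11b, which passed the filter through 1 kind of culture only, are given without tests, against the plan, after seeing the data. The text names all 9 members, at most 2 called genes with the smallest adjusted p per list and comparison, and the 3 genes most like each member. Tnfsf9, Tnfrsf1a, Cd28, Cd4 and the genes at 0 were named after their values were seen. The members and lists were chosen with earlier results of these data known.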

Additional observations from a re-analysis of the deposited data

Results flagged for a closer look

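In 4 of the 5 libraries left out, ligand genes stood above every library used. These 4 libraries had 190 to 4109 genes at a TPM of at least 1, and the part of this in their values was not tested. Tnf was 141.6, Ltb 219.96 and Tnfsf8 98.68 TPM in IL-12+IL-21 GFPneg replicate 3, against at most 85.48, 176.36 and 91.79 TPM in the libraries used. Lta was 2807.32 TPM in TGFb+IL-6 GFPneg replicate 3, against at most 1184.2, while the other 8 ligand genes were listed at 0 there. In TGFb+IL-6 GFPpos replicate 3 Tnfsf8 was 165.15 and Cd40lg 317.17 TPM, against at most 91.79 and 188.17. In IL-12 GFPneg replicate 1 Tnfsf8 was 261.91 TPM, while its Cd40lg and Tnf were below those of every library used, at 3.01 and 4.00 TPM.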

How the results depend on the processing

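Of the 28 calls on the 8 ligand genes tested, 28 held with pseudocounts of 0.1 and of 5, with TPM of at least 5 and with only the groups compared, 27 with median-ratio scaling and 26 without a filter, where Lta in TGFb+IL-6 against IL-12 GFPneg cells (adjusted p = 0.0734) and Tnfsf11 were lost. Leaving out each library, 21 calls held in every fit. The number of ligand genes called was then 0 to 1 for IL-12+IL-21 against IL-12 GFPneg cells (1 without IL-12 GFPneg replicate 3) and 3 to 5 for TGFb+IL-6 against IL-12 GFPneg cells (3 without TGFb+IL-6 GFPneg replicate 2, 6 with every library).

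Library choice changed most. With all 21 libraries 0 ligand genes were called in each of the 8 comparisons that had calls (limma; 0 to 3 with an unadjusted p under 0.05). With 18 libraries 0 were called in IL-1b+IL-6+IL-23 against IL-12 GFPneg, in IL-1b+IL-6+IL-23 against IL-12+IL-21 GFPneg and in TGFb+IL-6 against IL-12+IL-21 GFPpos cells (limma; 2, 3 and 2 with an unadjusted p under 0.05). There was 1 each in TGFb+IL-6 against IL-12 GFPneg, TGFb+IL-6 against IL-12+IL-21 GFPneg, IL-1b+IL-6+IL-23 against IL-12+IL-21 GFPpos and TGFb+IL-6 against IL-1b+IL-6+IL-23 cells sorted GFPpos. How many of all genes were called with 21 and with 18 libraries was not counted, so nothing particular to the ligand genes is read from these counts. Directions reversed with 21 libraries for Tnf in IL-12+IL-21 against IL-12 GFPneg (1.14), Ltb in TGFb+IL-6 against IL-12+IL-21 GFPneg (-2.09), Lta in TGFb+IL-6 against IL-12+IL-21 GFPpos (-0.68) and Ltb in TGFb+IL-6 against IL-1b+IL-6+IL-23 cells sorted GFPpos (-0.84). With 18 libraries Tnf (0.51) and Lta (-0.33) reversed in the same comparisons. Outside the ligand genes, Cd28 in IL-1b+IL-6+IL-23 against IL-12 GFPneg cells reversed with 21 and with 18 libraries (0.185 each), and Myc in TGFb+IL-6 against IL-12 GFPneg cells with 18 (0.013). None of the reversed values passed the test, and the cause was not tested.

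In TGFb+IL-6 GFPpos against GFPneg cells, with 1 GFPpos library in the main fit, the Tnfsf8 difference ranged from 1.18 to 3.74 over 11 alternatives. The GFP difference of Tnfsf8 was larger in TGFb+IL-6 than in IL-1b+IL-6+IL-23 cells by 1.72 to 4.32 over 17 alternatives. Except for median-ratio scaling, the share of all genes called under the other settings was not counted.

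Deviations of libraries with the same replicate number correlated at -0.09 to 0.20, above 0.1 in 4 of 18 pairs. Both pairs of IL-12+IL-21 GFPpos and GFPneg libraries were among these 4, at 0.156 and 0.116. The pairs of IL-1b+IL-6+IL-23 sorts lay at -0.0861, 0.0455 and 0.071. Groups of 2 libraries give mirrored deviations, so the 18 values are not separate checks. The main fit did not pair samples, and whether the numbers pair the sorts of 1 culture is not settled by these values. The replicate block kept 27 of the 28 calls, losing Tnfsf11 (adjusted p = 0.0564), and called 1 ligand gene in IL-12+IL-21 against IL-12 GFPneg cells.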

Other observations

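Within the stretch of chromosome 17 from 34589806 to 37196095 (GRCm38) that holds Tnf, Lta and Ltb, 78 genes were above 0 in at least 10 libraries. Their deposited values moved in steps of 0.04 TPM for 22 genes, 0.02 TPM for 18 and 0.01 TPM for 37, with a different step for the remainder. Lst1 and Nfkbil1, which flank the 3 ligand genes, and Ddx39b and Bag6 nearby also had steps of 0.04. The stretch was drawn from the first to the last gene with that step, so none can lie outside it. The last, Ubd, starts at 37193892, while H2-Q10 before it ends at 35474563. Among all 10935 genes checked, 209 had steps of 0.02, 7 had steps of 0.03, 1 had steps of 0.10, and 10696 had steps of 0.01.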
